A study of Mus musculus with 4 samples.

Results

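Microtubule genes were described in 82 single cells of the mouse subventricular zone and striatum. Members were the rows of the count table whose symbols began with Tuba, Tubb, Stmn, Kif, Mapre or Dclk and a digit, together with Map1a, Map1b, Map1s, Map2, Map4, Mapt and Dcx. This rule found 52 of the 15305 gene rows, namely 4 alpha-tubulins, 10 beta-tubulin rows of which 3 are pseudogenes, 4 stathmins, 22 kinesins, 6 microtubule-associated proteins (MAPs), 3 end-binding proteins and 3 genes of the doublecortin family. Of the 52 members, 5 had no count in any cell (Kif2c, Kif13a, Kif17, Map1s and Tubb6), and 42 had 10 or more counts in at least 1 cell.

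All cells carried Penk-Cre and Ai9: once Cre has been made in a cell that uses Penk, tdTomato stays on, so the red reporter marks present or past Penk-Cre activity. The labels give the genotype as WT and state neither age nor the number of animals. In dataset A, reporter-positive cells were sorted as negative for CD11b, a microglial surface protein, and 41 cells were on 1 plate. In dataset B, 41 reporter-positive cells were sorted without that gate and were on 4 plates. For each dataset the labels name neuroblasts and quiescent neural stem cells as separate samples, but the columns of the table give plate and well and no cell type, so cells were not assigned to the 4 labelled samples.

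Cells were grouped by 2 counts instead. Cells with 10 or more counts of Sox11, a transcription factor of young neurons, are called Sox11 cells, and cells with 1% or more of their counts in Enpp2, the autotaxin gene, are called Enpp2-rich. There were 16 and 25 Sox11 cells in datasets A and B, 14 and 16 Enpp2-rich cells, and 9 remaining cells, all of the 9 in dataset A. A further 2 cells of dataset A met both rules and stayed out of the comparison. The highest Sox11 count outside the class was 7 and the lowest inside it was 20, and the Enpp2 shares next to the limit were 0.999% and 1.25%. Neither Sox11 nor Enpp2 is a member.

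Microtubules are hollow polymers of alpha- and beta-tubulin pairs that carry transport, shape the cell and form the mitotic spindle and the core of cilia. Migrating neuroblasts of the subventricular zone depend on them: doublecortin bundles microtubules in the leading process, stathmins bind free tubulin and promote disassembly, and MAPs stabilise the lattice. Choroid plexus epithelium, known for Ttr and Enpp2 expression, is a secretory epithelium whose cells bear cilia.

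Several tubulin genes are close copies, and 2 pairs with unlike patterns across the classes are shown by the 250 bases before their start sites in RefSeq (GRCm38.p6), written on the strand of the gene. Tuba1a (minus strand, chr15:98953502-98953751) and Tuba1c (plus strand, chr15:99029641-99029890) lie on 1 chromosome. Tubb3 (plus strand, chr8:123411303-123411552) and Tubb4b (minus strand, chr2:25224703-25224952) do not. Capitals mark a match, on either strand, to a word searched in the promoters of the members: AACAAT and AACAAAG (bound by Sox proteins), CAGCTG (an E-box), TTCAGCACC (the first part of the element bound by REST) and TATAAA.
Tuba1a: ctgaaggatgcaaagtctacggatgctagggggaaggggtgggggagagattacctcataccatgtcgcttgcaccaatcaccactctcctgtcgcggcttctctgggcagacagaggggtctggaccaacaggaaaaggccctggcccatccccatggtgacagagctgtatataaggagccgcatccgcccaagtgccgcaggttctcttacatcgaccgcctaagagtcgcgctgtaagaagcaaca
Tuba1c: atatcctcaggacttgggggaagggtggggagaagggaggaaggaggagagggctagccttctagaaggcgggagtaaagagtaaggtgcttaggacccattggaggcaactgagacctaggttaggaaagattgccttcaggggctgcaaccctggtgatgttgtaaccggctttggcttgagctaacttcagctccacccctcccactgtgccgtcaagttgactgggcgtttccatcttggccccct
Tubb3: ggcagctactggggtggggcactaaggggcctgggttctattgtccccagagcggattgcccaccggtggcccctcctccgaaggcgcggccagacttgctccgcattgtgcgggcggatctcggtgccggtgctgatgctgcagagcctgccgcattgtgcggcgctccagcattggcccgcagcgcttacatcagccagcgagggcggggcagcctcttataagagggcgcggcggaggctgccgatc
Tubb4b: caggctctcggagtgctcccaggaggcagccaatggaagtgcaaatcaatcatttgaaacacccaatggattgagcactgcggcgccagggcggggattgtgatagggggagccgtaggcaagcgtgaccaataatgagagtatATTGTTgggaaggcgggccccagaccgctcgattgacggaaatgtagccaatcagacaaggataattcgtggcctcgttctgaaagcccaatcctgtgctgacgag

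The RefSeq table held 45 promoters of 300 bases (250 before and 50 after the start) for 37 of the 52 members, and none for Stmn1, Stmn2 and Stmn4. AACAAT was in 4 of the 45 (8.89%, against 10.7% of all 32851 promoters), in those of Tubb4b, Tubb5, Mapre3 and Kif15. AACAAAG was in 4 (8.89% against 5.85%), of Dcx, Kif3c and Kif9, CAGCTG in 8 (17.8% against 16.3%) and TATAAA in 10 (22.2% against 13.6%), the match of Tubb4b lying after the start and outside the bases shown. TTCAGCACC was in 0 of the 45 and in 0.371% of all promoters. The Tuba1c window shown above held 4 CG pairs, that of Tuba1a 11, that of Tubb4b 13 and that of Tubb3 21. A match is a description of the letters and not a binding site.

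Sox11 cells had a median of 12 (dataset A) and 13 (dataset B) of 17 neuroblast markers at 10 or more counts, and Enpp2-rich cells had 11 and 9 of 14 choroid plexus markers. The remaining cells had a median of 8 of 14 markers of quiescent stem cells and astroglia (range 0 to 13), with 3 or more in 6 of the 9 cells. Among these 9 cells, 1 had 42.9% of its counts in oligodendrocyte markers, and the highest share in microglia markers was 1.10%. The total was 530630 to 7765650 counts per cell. In 3 Sox11 cells of dataset A a list of another cell type took 1% or more of counts: 1 had 79.2% in choroid plexus markers with 992 Sox11 counts, 1 had 5.26% in microglia markers with 20 Sox11 counts, and 1 had 1.26% in astroglial markers at the lowest depth of 530630 counts. Members made up 0.0636%, 0.158% and 0.23% of the counts of these 3 cells. At 10 or more counts, 3 or more choroid plexus markers were found in 5 of the 16 Sox11 cells of dataset A and in 0 of the 25 of dataset B, and 3 or more microglia markers in 2 and 4. For striatal neuron markers these numbers were 2 and 0, and for astroglial markers 1 and 1. Among Enpp2-rich cells, 3 or more astroglial markers were found in 2 of 14 and 4 of 16 cells, and 3 of the 5 ependymal markers in 1 and 3 cells, against at most 1 of the 5 in any Sox11 cell. The part of these markers in the results was not tested. Results are given with the 3 cells. Without them, the Sox11 pool of dataset A was 1.10 to 1.33 times as high in CPM for the 29 named members at 10 CPM or more, and larger moves are given beside the values.

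As a whole, microtubule genes took a median of 2.29% of counts in Sox11 cells of dataset A (range 0.0636% to 4.06%, n = 16 cells) and 2.69% in dataset B (1.49% to 4.34%, n = 25 cells). In Enpp2-rich cells the medians were 0.0811% (3.43e-05% to 0.448%, n = 14 cells) and 0.305% (0.0843% to 0.574%, n = 16 cells), and in the remaining cells 0.33% (0.000507% to 0.6%, n = 9 cells). With Ttr and Enpp2 left out of each cell's total, the Enpp2-rich medians were 0.164% and 0.339%. The difference between the class medians was 2.29% ± 0.126 (SD, n = 2 datasets). Of the 41 Sox11 cells, 38 were above the highest Enpp2-rich cell, and the 3 that were not are those named above; without them the lowest value of dataset A was 1.07%. A median of 15 and 14 members had 10 or more counts in a Sox11 cell, against 2.5 and 5.5 in an Enpp2-rich cell and 4 in a remaining cell. Enpp2-rich cells also had fewer genes with any count, with medians of 1237.5 and 1477 against 1699.5 and 1818, and the part of this in the member counts was not tested.

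**Figure D1:**
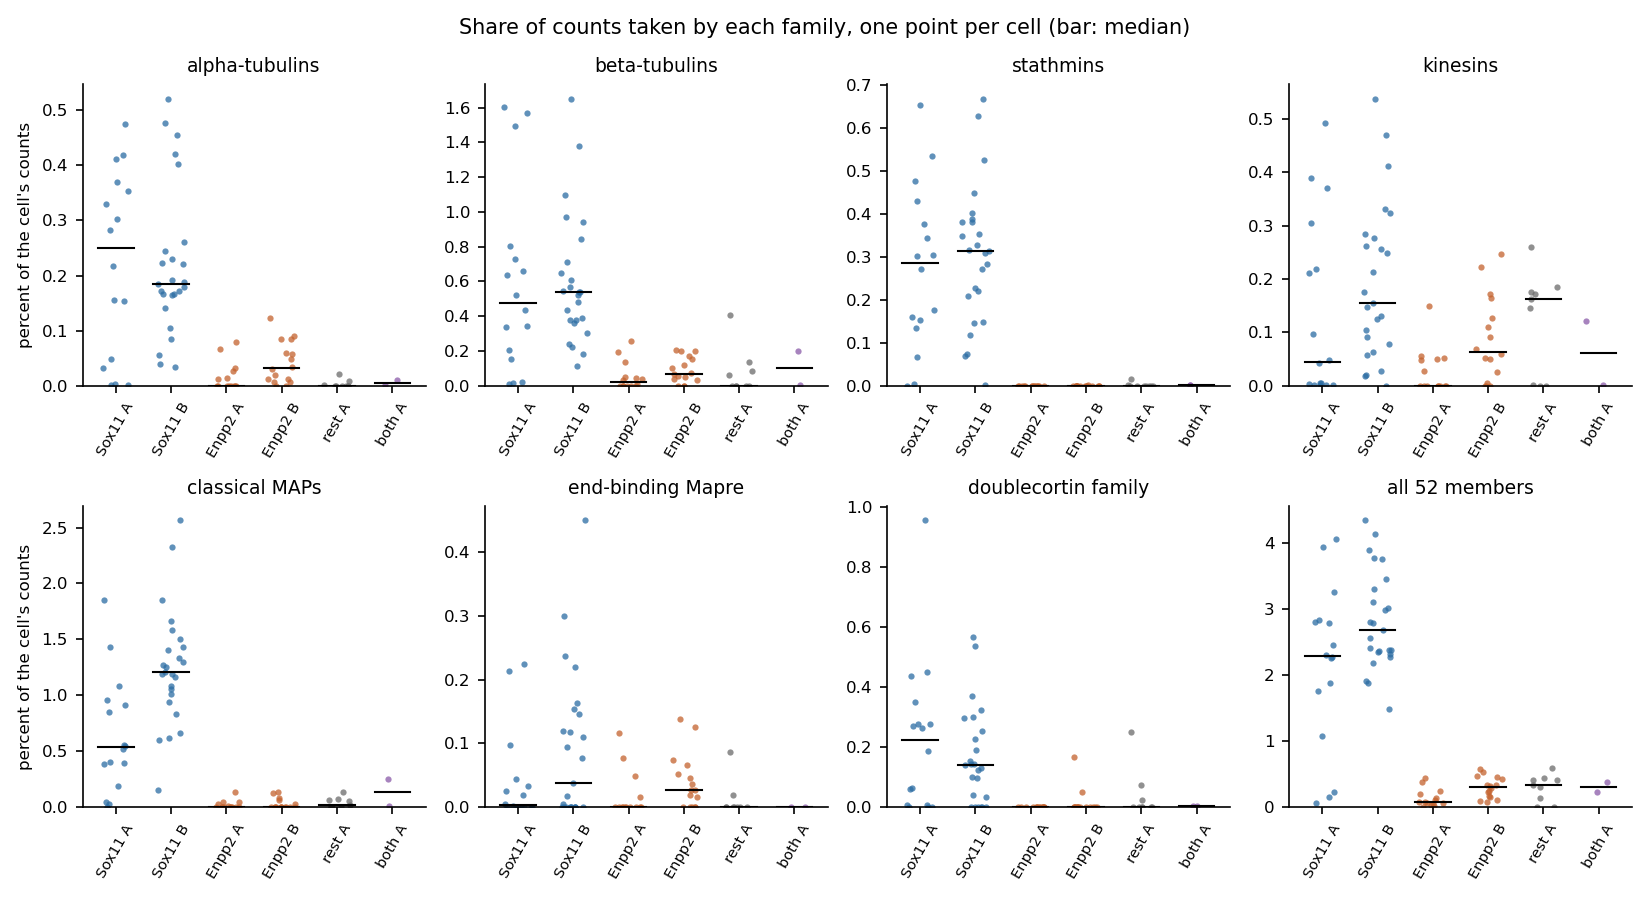
Percent of each cell's counts (y axis) in each family and in all 52 members, by class and dataset (x axis); each point is a cell and each bar the median of its group. Stathmins were near 0 in every Enpp2-rich cell and higher in 39 of 41 Sox11 cells, while kinesins and end-binding genes overlapped between the classes.

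The families differed in how far the classes were apart. Stathmins were above the highest Enpp2-rich cell in 39 of 41 Sox11 cells, and the MAPs Map1a to Mapt in 38. For beta-tubulins this held in 32 cells and for alpha-tubulins in 31. Only 18 Sox11 cells were above the highest Enpp2-rich cell for the doublecortin family, where 1 Enpp2-rich cell had 0.167% in Dclk1. Kinesins (14 cells) and end-binding genes (9 cells) overlapped most.

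For the test, each class was summed by dataset. This gave 2 Sox11 pools and 2 Enpp2-rich pools, and edgeR's quasi-likelihood test compared them across 7187 genes. Both pools of a dataset were sorted under 1 gate, and p-values measure the spread between these pools. After Benjamini-Hochberg adjustment the test called 0 of the 34 members that passed the filter on low counts, and 0 of 7187 genes (0%). At an unadjusted p under 0.05 there were 17 members, of which 16 were higher in Sox11 cells, where 9.93% of all genes tested were, and 1, Tubb4b, was higher in Enpp2-rich cells, where 4.22% were. The median log2 difference (Sox11 minus Enpp2-rich) of the 34 members was 5.28, against 0.50 over all genes. Of the members 28 were positive and 6 negative, against 4092 positive and 3095 negative of the 7187 genes. Both medians moved when a pool was left out: to 10.73 and 7.42 without the Enpp2-rich pool of dataset B, and to 3.65 and -0.44 without the Sox11 pool of dataset B. With genes under 3 counts in a class set to that floor, the medians of summed counts were 5.82 and 1.00. Without TMM scaling the median over all genes was 0.91, and again 28 members were positive, against 4573 of the 7187 genes.

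The count of calls turned on the tool and the filter. DESeq2 called 17 of the same 34 members (19.4% of all genes tested), among them Tuba1c but not Tuba1a, Tubb5, Map1b or Tubb4b, and edgeR with no filter on low counts called 13 of 47 (2.86%). With the remaining cells added as a pool, edgeR called 4 of 43, Dcx, Stmn2, Stmn3 and Tubb3 (0.551% of all genes). Without the Sox11 pool of dataset A it called 7 of 42 (2.01%), and without that of dataset B 6 of 38 (1.3%), the lone pool being assumed to vary like the others. In counts of pools that did not overlap, both Sox11 pools were above both Enpp2-rich pools for 28 of the 41 members with 10 or more counts in a compared cell, against 27.4% of 10300 genes. Both Enpp2-rich pools were above for 3 members (Tuba1c, Tubb4b and Mapre3), against 9.89%.

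Of the 3 alpha-tubulins tested, edgeR called 0 and 1, Tuba1a, had an unadjusted p under 0.05, higher in Sox11 cells (9.93% of all genes tested). DESeq2 called 1 of 3, Tuba1c (19.4% of all genes tested), and edgeR with no filter on low counts 1 of 4, Tuba1a (2.86%). Tuba1a, the alpha-tubulin of newborn neurons, had 1971 and 2194 CPM (counts scaled to a total of 1000000) in the Sox11 pools of datasets A and B, 73.6 and 188 CPM in the Enpp2-rich pools and 0.371 CPM in the remaining cells. Every Sox11 cell but 1 had 10 or more counts (40 of 41, 97.6%, exact 95% binomial interval 87.1% to 99.9%), against 9 of 30 Enpp2-rich cells and 0 of 9 remaining cells. In the Enpp2-rich pool of dataset A 1 cell gave 53.6% of the Tuba1a counts, leaving 36.9 CPM. The pools did not overlap, with means of 2083 ± 158 and 131 ± 81.1 CPM (SD, n = 2 pools each). The edgeR log2 difference was 3.57 ± 0.86 (SE, unadjusted p = 0.00874, adjusted p = 0.236).

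Tuba1c, a close copy of Tuba1a, had 7 counts in the Sox11 pool of dataset A and 8 in that of dataset B (0.238 and 0.156 CPM), against 27.6 and 73.7 CPM in the Enpp2-rich pools and 0 in the remaining cells. No Sox11 cell had 10 counts (0 of 41 cells, which allows a share of up to 7.32%), and 10 of 30 Enpp2-rich cells did (33.3%, interval 17.3% to 52.8%). The pools did not overlap, and 14.8 CPM were left in the Enpp2-rich pool of dataset A without its highest cell. Its fitted log2 difference of -8.37 ± 3.45 (SE) did not pass edgeR's test (adjusted p = 0.372). Tuba1b, a broadly expressed alpha-tubulin, had 75.1 and 74.4 CPM in the Sox11 pools, 45.9 and 119 CPM in the Enpp2-rich pools and 34.5 CPM in the remaining cells, so that the classes overlapped. Without the highest cell the Enpp2-rich pool of dataset A had 27.6 CPM of Tuba1b, and the value of the remaining cells came from 1 cell. Tuba4a was at 0 in the 41 Sox11 cells, and 99.9% of its counts in the Enpp2-rich pool of dataset B came from 1 cell.

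These copies share sequence, which can move reads between them. In GENCODE vM39 transcripts, 41.9% of the 50-base words of Tuba1a, 32.4% of those of Tuba1b and 47.5% of those of Tuba1c were in another member's transcripts, and how multiply mapped reads were counted is not given in the sources used here. Per kilobase of exon, Tuba1a made up 98.1% and 98.3% of alpha-tubulin in the Sox11 pools and 63% and 59.2% in the Enpp2-rich pools, where Tuba1c made up 16.6% and 16.2%. Of counts not scaled by length, Tuba1a was 96.3% and 96.7% in the Sox11 pools and 50% and 43.7% in the Enpp2-rich pools. Within Enpp2-rich cells the isotype with the most counts per kilobase was Tuba1a in 8 cells, Tuba1b in 6, Tuba1c in 5 and Tuba4a in 1, and 10 of 30 cells had no alpha-tubulin at 10 counts. Of the 10 Enpp2-rich cells with Tuba1c, 4 also had Tuba1a.

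Of the 6 beta-tubulins tested, edgeR called 0 and 5 had an unadjusted p under 0.05. In Sox11 cells 4 were higher (9.93% of all genes tested), and in Enpp2-rich cells 1 (4.22%). DESeq2 called 4 of 6 (19.4% of all genes tested) and edgeR with no filter on low counts 4 of 9 (2.86%), each higher in Sox11 cells. Tubb5, the broadly expressed class I beta-tubulin, had 3078 and 3913 CPM in the Sox11 pools, 154 and 402 CPM in the Enpp2-rich pools and 840.2 CPM in the remaining cells, of which 1 cell gave 78.3% (217.5 CPM without it). In the Enpp2-rich pool of dataset A 1 cell gave 84.1% of the counts, leaving 26.4 CPM. All 41 Sox11 cells had 10 or more counts, against 15 of 30 Enpp2-rich cells and 3 of 9 remaining cells. The Sox11 pools were above the others, by a log2 difference from the Enpp2-rich pools of 3.23 ± 0.83 (SE, edgeR, unadjusted p = 0.0112, adjusted p = 0.247).

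Tubb3, the neuronal class III beta-tubulin and a standard marker of young neurons, had 1683 and 1263 CPM in the Sox11 pools. Its Enpp2-rich pools held 1 count and 0 counts, and the remaining cells 1 count. In all, 29 of 41 Sox11 cells had 10 or more counts (70.7%, interval 54.5% to 83.9%), so 12 cells of the class were under 10 counts, and 0 of 30 Enpp2-rich cells did (up to 10%). The unadjusted p was 0.000659 and the adjusted p 0.22 (edgeR), a lowest value shared with other members.

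Tubb2a and Tubb4a, both abundant in brain, followed. Tubb2a had 155 and 538 CPM in the Sox11 pools, 0 in both Enpp2-rich pools and 137 CPM in the remaining cells (49.7 CPM without the highest cell), and was at least 9482-fold higher in the summed Sox11 cells than the floor of 3 counts over the Enpp2-rich class. Tubb4a had 767 and 309.7 CPM in the Sox11 pools and 2 counts in all Enpp2-rich cells. It was found in 17 of 41 Sox11 cells, and a single cell held 40.5% of the counts of the Sox11 pool of dataset A, which had 478 CPM without it. Tubb2b, a close copy of Tubb2a, had 1.53 and 83.6 CPM in the Sox11 pools, and 27% of the words of Tubb2a were shared with another member. In the Sox11 pool of dataset A 1 cell gave 71.1% of the Tubb2b counts, leaving 0.472 CPM.

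Tubb4b, a beta-tubulin known from cilia, was the member higher in Enpp2-rich cells at an unadjusted p under 0.05 in edgeR, while DESeq2 called Tuba1c on that side and not Tubb4b. The Enpp2-rich pools had 348 and 489.6 CPM, the Sox11 pools 62.4 and 31 CPM and the remaining cells 0. It had 10 or more counts in 16 of 30 Enpp2-rich cells (53.3%, interval 34.3% to 71.7%) and in 4 of 41 Sox11 cells (9.76%, interval 2.72% to 23.1%). The means were 419 ± 100.4 and 46.7 ± 22.2 CPM (SD, n = 2 pools each), with no overlap, and the log2 difference was -3.67 ± 1.11 (SE, edgeR, unadjusted p = 0.0211, adjusted p = 0.288). In the Sox11 pool of dataset A, 82% of its counts came from 1 cell, and 11.8 CPM were left without it. The highest cell gave 50.1% in the Sox11 pool of dataset B, leaving 16 CPM, and 42.7% in the Enpp2-rich pool of dataset A, leaving 215 CPM. Its pseudogenes Tubb4b-ps1 and Tubb4b-ps2 had 2 and 7 counts in the compared cells.

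**Figure D2:**
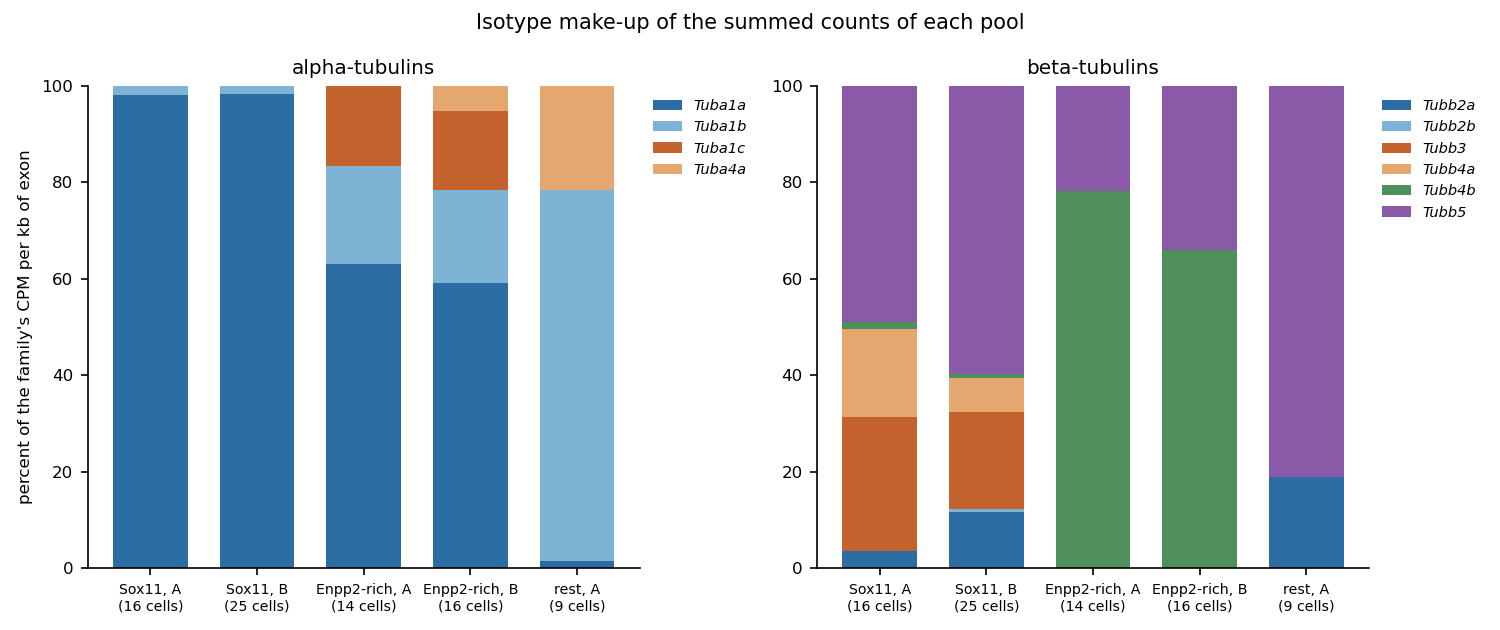
Share of each isotype (y axis, percent of the family's CPM per kilobase of merged exon) in the summed counts of each pool (x axis), for alpha-tubulins on the left and beta-tubulins on the right. Tuba1a made up 98.1% and 98.3% of alpha-tubulin and Tubb5 48.9% and 59.8% of beta-tubulin in the Sox11 pools, and Tubb4b made up 78.2% and 66.1% of beta-tubulin in the Enpp2-rich pools.

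Per kilobase of exon, Tubb5 was 48.9% and 59.8% of beta-tubulin in the Sox11 pools, Tubb3 27.8% and 20.1%, Tubb4a 18.2% and 7.06%, and Tubb4b 1.58% and 0.757%. In the Enpp2-rich pools Tubb4b was 78.2% and 66.1% and Tubb5 the remainder. Of beta-tubulin counts not scaled by length, Tubb4b was 69.2% and 54.9% in these pools. Cell by cell, Tubb5 had the most counts per kilobase in 31 of 41 Sox11 cells, Tubb4a in 4, Tubb3 in 3, Tubb2a in 2 and Tubb4b in 1. Among Enpp2-rich cells Tubb4b led in 14, Tubb5 in 7, and 9 had no beta-tubulin at 10 counts. Tubb4b and Tubb5 were found together in 10 of the 30 cells, so they were not alternatives within a cell.

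All 4 stathmins were tested, edgeR called 0, and 4 had an unadjusted p under 0.05, each higher in Sox11 cells (9.93% of all genes tested). DESeq2 (19.4% of all genes tested), and edgeR with no filter on low counts (2.86%), called 4 of 4. Stmn1, the ubiquitous stathmin, had 719 and 1010.0 CPM in the Sox11 pools, 0 and 1.30 CPM in the Enpp2-rich pools and 5.44 CPM in the remaining cells. It was found in 39 of 41 Sox11 cells, 1 of 30 Enpp2-rich cells and 1 of 9 remaining cells. The log2 difference was 10.23 ± 2.73 (SE, edgeR, unadjusted p = 0.0131, adjusted p = 0.263).

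The neuronal stathmins were found in fewer Sox11 cells. Stmn2 (SCG10, a growth cone protein) had 728 and 1106 CPM, with 24 of 41 cells at 10 or more counts, and 0 counts in the Enpp2-rich and the remaining cells. It was at least 23048-fold higher in the summed Sox11 cells than the floor over the Enpp2-rich class (edgeR, unadjusted p = 0.000671, adjusted p = 0.22). Stmn3 had 554 and 628 CPM and 27 of 41 cells, and 0 counts in Enpp2-rich cells (at least 14310-fold, adjusted p = 0.22).

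Stmn4 had 543 and 298 CPM and 28 of 41 cells, against 1 count in Enpp2-rich cells (unadjusted p = 0.00232, adjusted p = 0.223). In the Sox11 pool of dataset A 1 cell gave 41% of its counts, leaving 342 CPM. The stathmin with the most counts per kilobase was Stmn3 in 15 Sox11 cells, Stmn2 in 12, Stmn1 in 10 and Stmn4 in 2. This order depends on the exon length used. Of stathmin counts not scaled by length, Stmn3 was 21.8% and 20.6% in the Sox11 pools. Stmn2 was 28.6% and 36.4%, Stmn1 28.3% and 33.2%, and Stmn4 21.4% and 9.79%. Within the class the paralog with the most counts per kilobase differed from cell to cell. The part of transcripts missed when a cell's library was made was not tested.

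All 3 genes of the doublecortin family were tested, edgeR called 0, and 2 had an unadjusted p under 0.05, higher in Sox11 cells (9.93% of all genes). DESeq2 (19.4% of all genes) and edgeR with no filter on low counts (2.86%) each called 2 of 3, Dcx and Dclk2. Dcx, the doublecortin gene and a classical neuroblast marker, had 1336 and 1079.7 CPM in the Sox11 pools, 1 count in all Enpp2-rich cells and 0 in the remaining cells. Per cell it ranged from 0 to 9350.1 CPM in dataset A (median 262, and 864.5 without the 3 cells with other markers) and from 0 to 3426 CPM in dataset B (median 972), and 27 of 41 cells had 10 or more counts (65.9%, interval 49.4% to 79.9%). Most Sox11 cells were high, 14 were under 10 counts, and no Enpp2-rich cell was above 1 count. The unadjusted p was 0.000729 and the adjusted p 0.22 (edgeR).

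The relatives of Dcx were also found outside the Sox11 cells. Dclk2, a doublecortin-like kinase, had 370.2 and 344 CPM in the Sox11 pools, 0 in both Enpp2-rich pools and 43.9 CPM in the remaining cells, where 3 of 9 cells had it and 19.2 CPM were left without the highest (at least 8413-fold between the summed classes, adjusted p = 0.223). Dclk1, the other doublecortin-like kinase, had 238 and 317 CPM in the Sox11 pools, 0.0271 and 149.9 CPM in the Enpp2-rich pools and 159 CPM in the remaining cells. The pools did not overlap, but the difference did not pass edgeR's test (log2 1.78 ± 2.64, SE, adjusted p = 0.966). In the Sox11 pool of dataset A 1 cell held 51.1% of the Dclk1 counts, leaving 124 CPM, in the Enpp2-rich pool of dataset B 1 cell held 83.2%, leaving 27.1 CPM, and in the remaining cells 1 cell held 99.6%.

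For the 4 MAPs tested, edgeR called 0 and 2 had an unadjusted p under 0.05, each higher in Sox11 cells (9.93% of all genes). DESeq2 called 1 of 4, Mapt (19.4% of all genes), and edgeR with no filter on low counts 2 of 5, Map1b and Mapt (2.86%). Among MAPs, Map1b, an early axonal MAP, had the highest CPM in the Sox11 pools. Per kilobase of exon its level there was 294 and 682 CPM, below Tuba1a (1088 and 1211) and Tubb5 (922 and 1172). Not scaled by length, it had 4853 and 11267 CPM in the Sox11 pools, 258 and 247 CPM in the Enpp2-rich pools and 39.4 CPM in the remaining cells. It was found in 41 of 41 Sox11 cells, 9 of 30 Enpp2-rich cells and 1 of 9 remaining cells. The pools did not overlap, and the log2 difference was 4.33 ± 0.97 (SE, edgeR, unadjusted p = 0.00653, adjusted p = 0.231). In dataset A the lowest Sox11 cell had 5.35 CPM, and without the 3 cells with other markers the lowest was 1275 CPM and the pool 6402 CPM.

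Map2, the MAP of dendrites, had 402 and 706 CPM in the Sox11 pools, 7.26 and 0 CPM in the Enpp2-rich pools and 78.4 CPM in the remaining cells, and was found in 35, 1 and 2 cells of the 3 classes, the remaining cells having 15.7 CPM without the highest. Its unadjusted p was 0.0993 (edgeR, adjusted p = 0.445). Mapt, which encodes the axonal protein tau, had 264 and 410.3 CPM in the Sox11 pools and 4 counts in all Enpp2-rich cells, with 14 of 41 Sox11 cells and 162 CPM in the Sox11 pool of dataset A without its highest cell (log2 12.22 ± 2.58, SE, adjusted p = 0.225). Map4, the general MAP, had 181 and 186 CPM, 0 and 20 CPM, and 101 CPM in the 3 classes in the same order, in 13, 1 and 3 cells. The highest cell gave 68.9% and 52.6% of the Map4 counts of the Sox11 pools and 54.9% of those of the remaining cells, leaving 59.9, 92.4 and 52.2 CPM. Map1a had 7 counts in the Sox11 and remaining cells together.

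**Figure D3:**
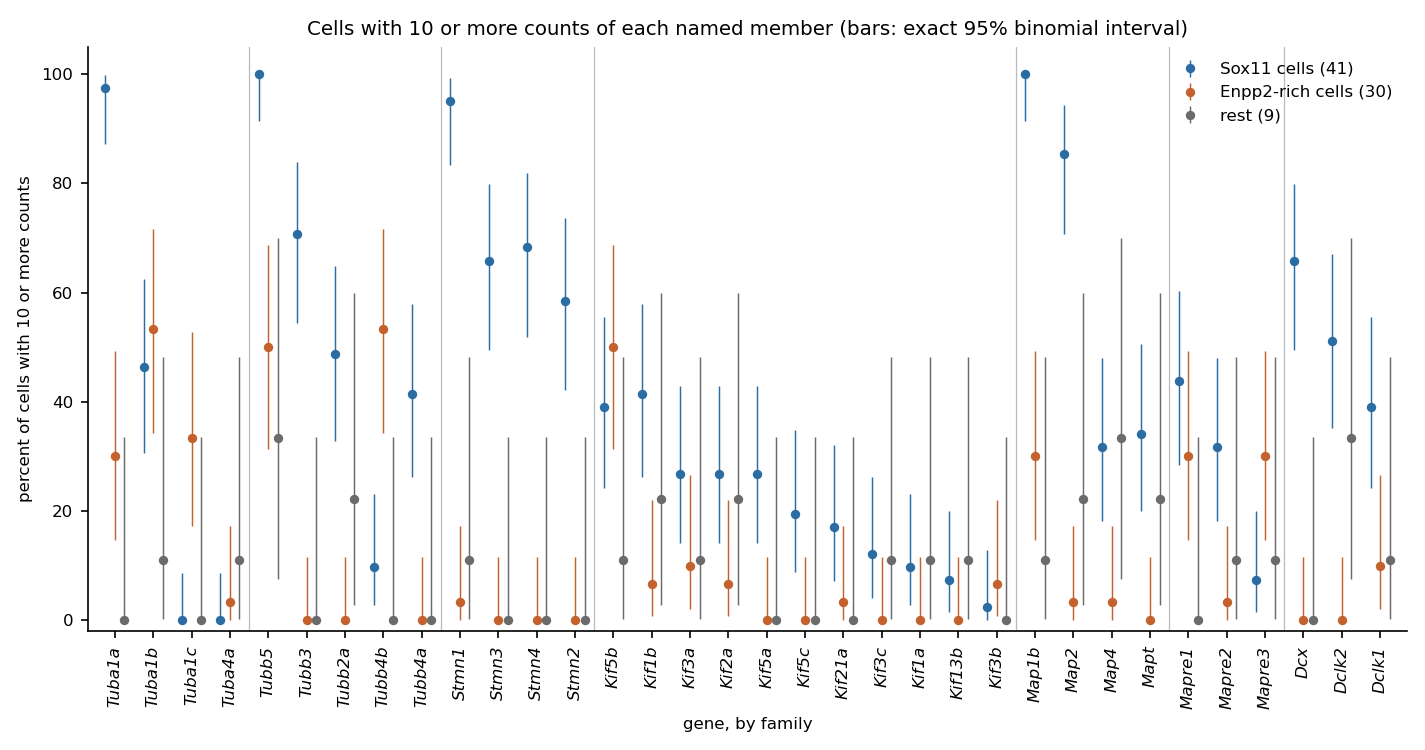
Percent of cells with 10 or more counts (y axis) for each named member (x axis), in the 41 Sox11 cells, 30 Enpp2-rich cells and 9 remaining cells; bars are exact 95% binomial intervals, which cover counting error over cells. Tuba1a, Tubb5, Stmn1 and Map1b were found in 39 to 41 Sox11 cells. Tuba1c, Tubb4b, Mapre3, Tuba1b, Kif5b, Kif3b and Tuba4a were found in a larger share of Enpp2-rich than of Sox11 cells. Among them only Tuba1c and Tubb4b had intervals that did not overlap.

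End-binding proteins track growing microtubule ends. Of their 3 genes 0 had an unadjusted p under 0.05 in edgeR, against 9.93% (higher in Sox11 cells) and 4.22% (higher in Enpp2-rich cells) of all genes. DESeq2 called 0 of the 3, against 19.4% of all genes tested. Mapre1 (EB1) had 104 and 434 CPM in the Sox11 pools and 53.2 and 296 CPM in the Enpp2-rich pools, so that the pools overlapped. Without the highest cell of each pool the Mapre1 values were 52 and 382 CPM against 21.2 and 209 CPM. Its log2 difference of 0.28 ± 1.27 (SE, adjusted p = 0.997) was -0.95 without the Sox11 pool of dataset B and -0.26 without the Enpp2-rich pool of dataset A. Mapre2 had 197 and 375 CPM against 65.9 and 0 CPM, the Enpp2-rich value resting on 1 cell and the Sox11 pool of dataset A having 130.3 CPM without its highest cell (edgeR, adjusted p = 0.963).

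Mapre3 (EB3) had the opposite order of pools, with 23.2 and 11 CPM in the Sox11 pools, 60.8 and 90.3 CPM in the Enpp2-rich pools and 146 CPM in the remaining cells, where 1 of 9 cells had it. It was found in 3 of 41 Sox11 cells (7.32%, interval 1.54% to 19.9%) and 9 of 30 Enpp2-rich cells (30%, interval 14.7% to 49.4%). The pools did not overlap, with 97.1% of the counts of the Sox11 pool of dataset A and all of those of dataset B in 1 cell each, and 27 and 58.7 CPM left in the Enpp2-rich pools without their highest cells, but the log2 difference of -2.64 ± 2.07 did not pass the test (SE, adjusted p = 0.769).

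Kinesins are the motors that walk along microtubules, and most were sparse. Among the 11 tested, edgeR called 0 and 3 had an unadjusted p under 0.05, each higher in Sox11 cells (9.93% of all genes). DESeq2 called 5 of 11, each higher in Sox11 cells (19.4% of all genes): Kif1a, Kif3c, Kif5a, Kif13b and Kif24. With no filter on low counts edgeR called 0 of 19 (2.86%). Of 22 kinesins, 4 reached 10 counts in no cell, 9 in 1 to 5 cells, 6 in 6 to 15 cells and 3 in more. The widest, with 32 of 82 cells, was Kif5b, the ubiquitous heavy chain of conventional kinesin. It had 102 and 306 CPM in the Sox11 pools, 136 and 315 CPM in the Enpp2-rich pools and 106 CPM in the remaining cells, and was found in 16 of 41 and 15 of 30 compared cells. Without the highest cell the pools of dataset A had 65.4 CPM (Sox11) and 81.3 CPM (Enpp2-rich) of Kif5b, and the value of the remaining cells came from 1 cell. The classes overlapped (log2 -0.63 ± 1.09, SE, adjusted p = 0.977).

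The neuronal heavy chains of the same motor were sparse in Enpp2-rich cells. Kif5a had 178 and 236 CPM in the Sox11 pools and 4 counts in all Enpp2-rich cells (log2 10.89 ± 3.20, SE, unadjusted p = 0.0189, adjusted p = 0.282), in 11 of 41 Sox11 cells. In the Sox11 pool of dataset A 1 cell gave 58.3% of the Kif5a counts, leaving 78.9 CPM. Kif5c had 391 CPM in the Sox11 pool of dataset B, from 8 of 25 cells, and 0.102 CPM in that of dataset A, with 0 of 16 cells. It did not pass the filter on low counts. The datasets differ by the CD11b gate, the plates and the sort, which cannot be told apart.

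Of the other cargo motors, Kif1b, a carrier of mitochondria and synaptic vesicle precursors, had 114 and 192 CPM in the Sox11 pools, 21.3 and 4.76 CPM in the Enpp2-rich pools and 227 CPM in the remaining cells (log2 2.66 ± 1.99, SE, adjusted p = 0.741). In the Sox11 pool of dataset A 1 cell gave 79.6% of its counts, leaving 24.5 CPM, that of dataset B had 122 CPM without its highest cell, each Enpp2-rich value came from 1 cell, and the remaining cells had 111 CPM without their highest cell. Kif3a, a subunit of kinesin-2 used in cilia and axons, had 314 and 185 CPM against 76.2 and 3.48 CPM (adjusted p = 0.905), or 204 and 127 CPM against 31.1 and 0 CPM without the highest cell of each pool. Its partner Kif3b was at 18.7 CPM in 1 Sox11 pool and 149.7 CPM in 1 Enpp2-rich pool and at 0 in the others, from 3 cells in all (log2 -3.20, but 11.26 without the Enpp2-rich pool of dataset B). The neuronal partner Kif3c had 117 and 127 CPM in the Sox11 pools and 2 counts in Enpp2-rich cells (unadjusted p = 0.0283, adjusted p = 0.311), but all of the counts of the Sox11 pool of dataset A came from 1 cell.

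Kif1a, the motor of synaptic vesicle precursors, was carried by 1 cell in each Sox11 pool (99.9% and 94.2% of its counts). Kif2a, which depolymerises microtubule ends, had 126 and 119 CPM in the Sox11 pools, 0.0271 and 41.8 CPM in the Enpp2-rich pools and 363 CPM in the remaining cells, from 11, 2 and 2 cells. Without the highest cell of each pool these Kif2a values were 51.4, 58.3, 0, 18.4 and 139 CPM. Kif21a, a motor that halts microtubule growth, was found in 7 Sox11 cells and 1 Enpp2-rich cell, and Kif13b in 3 Sox11 cells. Kif9 (163 CPM, 3 cells) and Kif16b (89.9 CPM, 2 cells) were found in the Enpp2-rich cells of dataset B and had 0 counts in Sox11 cells. Without the highest cell, 70.3 CPM of Kif9 and 28.4 CPM of Kif16b were left in that pool. Of 12 kinesins listed for mitosis, 3 were rows of the table (Kif2c, Kif15 and Kif24), and none had 10 counts in more than 3 cells.

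**Figure D4:**
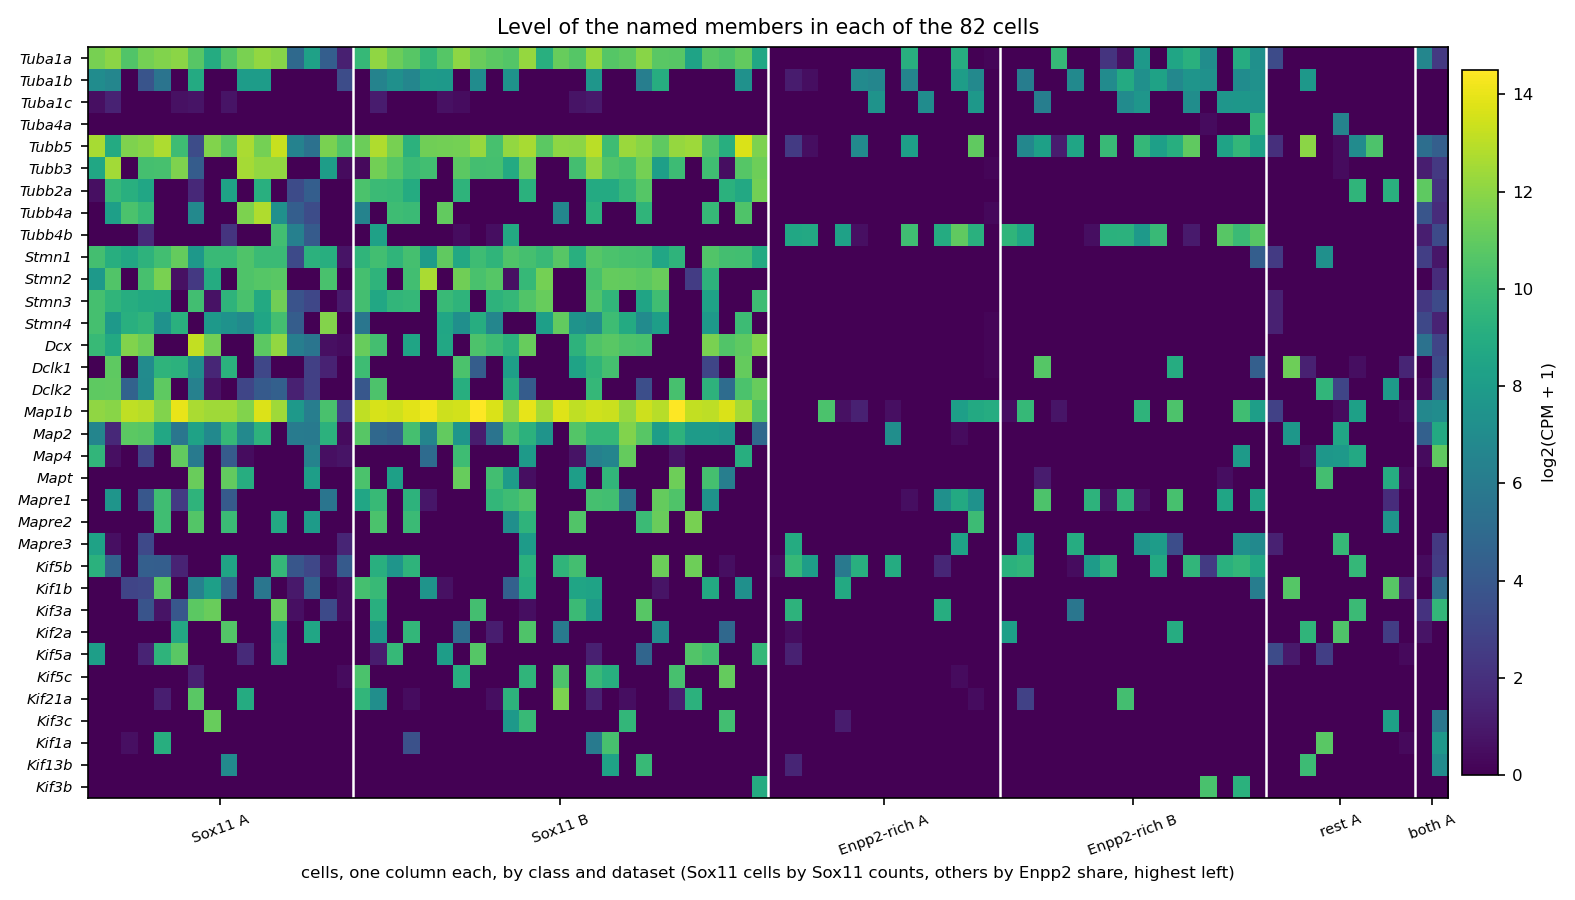
Level of the named members (rows) in each of the 82 cells (columns), as log2(CPM + 1) by colour; columns are grouped by class and dataset and ordered within a group by Sox11 counts or, outside the Sox11 cells, by Enpp2 share. Map1b, Tubb5, Tuba1a and Stmn1 form near-continuous rows in the Sox11 cells, and most other members are present in some cells and at 0 in others.

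Sox11 cells were not uniform in the members found. Of 5 neuronal members (Tubb3, Dcx, Stmn2, Stmn3 and Stmn4), all 5 were found in 10 of 41 cells, 4 in 10, 3 in 11, and fewer in 10, of which 2 cells had none. Without the 3 cells with other markers these numbers were 10, 10, 10 and 8 of 38, with 1 cell that had none. The median depth was 1876070 counts in cells with 5, 2372180 in cells with 4, 1855920 in cells with 3, 1581950 in cells with 2, 1823670 in cells with 1 and 2119450 in those with none, and its part in these numbers was not tested beyond the thinning given next. Tubb3 and Dcx were found together in 20 cells, Tubb3 alone in 9, Dcx alone in 7 and neither in 5. Across the 41 cells the CPM of Tubb3 and Tuba1a gave a Spearman rho of 0.76, the highest of 91 pairs of members computed (the next was 0.47, Stmn1 and Tuba1a), a description over cells that share library, plate and depth, while that of Tubb3 and Dcx gave 0.16. These values cover both datasets and the 3 cells with other markers, and rho was not computed without those cells or within a dataset.

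Thinning each cell to 500000 counts left most of these numbers within 1 cell. Stmn2, Stmn3, Stmn4 and Dcx kept 24, 27, 28 and 27 Sox11 cells, Tubb3 had 28 instead of 29, and Tubb4b and Tuba1c kept 16 and 10 Enpp2-rich cells. Larger losses among Sox11 cells were seen for Dclk2 (21 to 17), Kif3a (11 to 8), Kif5b (16 to 13), Dclk1 (16 to 14), Kif1b (17 to 15), Map4 (13 to 11) and Mapre1 (18 to 16).

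In dataset B the classes could also be set side by side within a plate. On plate P1 members took a median of 2.79% of counts in 12 Sox11 cells and 0.513% in 2 Enpp2-rich cells, on plate P3 3.30% in 3 and 0.266% in 4, and on plate PL4 2.33% in 4 and 0.283% in 10. Plate P2 held 6 Sox11 cells (median 2.44%) and no Enpp2-rich cell. The ranges of the classes did not overlap on any of the 3 plates. The 4 Sox11 cells of plate PL4 had 0 counts of Dcx, Dclk1 and Dclk2, and 3 of the 4 had Stmn2 (2779 CPM). The 12 of plate P1 all had Dcx at 10 or more counts (1500.1 CPM). Plate P3 had 0 counts of Stmn2 in its 3 Sox11 cells and Dcx in 2 of them. On plate P2 Dcx was found in 3 and Stmn2 in 2 of the 6 Sox11 cells, and those of wells A4 and A5 had 0% of counts in the doublecortin family. Tubb4b had 1293 CPM in the Enpp2-rich cells of P1, 679 CPM in those of P3 and 218 CPM in those of PL4, against 30.2, 0 and 0 CPM in the Sox11 cells of the same plates.

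The 9 remaining cells had low alpha-tubulin counts: Tuba1a was under 10 counts in each (0 of 9 cells, which allows a share of up to 33.3%), and 7 of 9 had no alpha-tubulin at that level. Tubb5 and Tubb2a were found in 3 and 2 cells and made up 81.2% and 18.8% of beta-tubulin per kilobase. Kinesins had a median of 0.163% of counts, against 0.045% in the Sox11 cells of the same gate and 0.0966% in those without the 3 cells with other markers. Of summed counts, kinesins were 0.111% in the remaining cells and 0.112% in the Sox11 pool of that gate. Kif2a, Kif1b and Kif13b (161 CPM, 1 cell) had the highest kinesin CPM in the remaining cells, and stathmins were under 10 counts in 8 of 9. With 1 pool there was no test. Stmn2 and Dcx had 0 counts and Tubb3 had 1 in these cells.

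A list of 106 other microtubule genes in the table (tubulin folding cofactors, gamma-tubulin complexes, modifying and severing enzymes, end-binding and lattice proteins, dynein, dynactin and adaptors) had 76 genes tested and 0 called by edgeR. DESeq2 called 15 of the 76, 14 of them higher in Sox11 cells, against 19.4% of all genes tested. With no filter on low counts edgeR called 3 of 98, against 2.86% of all genes. With the remaining cells as a pool it called 3 of 94, against 0.551%. At an unadjusted p under 0.05 there were 6 higher in Sox11 cells and 1 higher in Enpp2-rich cells (9.93% and 4.22% of all genes tested), and the median log2 difference was 1.30, against 0.50 over all genes. Both Sox11 pools were above both Enpp2-rich pools for 36 of the 93 list genes with 10 or more counts in a compared cell, against 27.4% of all genes, and both Enpp2-rich pools were above for 2, against 9.89%. Atat1, the alpha-tubulin acetyltransferase, had 465 and 1218 CPM in the Sox11 pools and 1 count in Enpp2-rich cells (adjusted p = 0.22). Nav1, a neuron navigator of growing ends, had 906 and 227 CPM (131 CPM for dataset B without its highest cell) and 0 counts (adjusted p = 0.223), and Macf1, a microtubule-actin crosslinker, 281 and 202 CPM against 0.0813 and 0.696 CPM (adjusted p = 0.236), with 184 CPM for dataset A without its highest cell.

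On the Enpp2-rich side, Dynlt3, a dynein light chain, had 328 and 1167 CPM in the Enpp2-rich pools and 0.272 and 0.0585 CPM in the Sox11 pools (log2 -12.43 ± 1.81, SE, edgeR, unadjusted p = 0.000945, adjusted p = 0.22). It was found in 4 of 14 and 9 of 16 Enpp2-rich cells and in no Sox11 cell, and 196 CPM were left in dataset A without the highest cell. Ttll5, a tubulin glutamylase, had 78.1 and 56.3 CPM in the Enpp2-rich pools and 0 and 4.35 CPM in the Sox11 pools (adjusted p = 0.637), with 41.3 and 4.06 CPM left in the Enpp2-rich pools without their highest cells. Katnal2, a relative of the severing enzyme katanin, had 142 CPM in the Enpp2-rich pool of dataset A, from 2 cells, and 0 in that of dataset B (log2 -8.23, adjusted p = 0.65, and 7.13 without the Enpp2-rich pool of dataset A).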

How the data were processed

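Raw read counts were deposited for 82 sorted cells (15305 rows, of which 1997 were at 0 throughout), made by template switching and PCR per the labels, with no molecular identifiers mentioned. The submitters' processing notes name FastQC 0.12.1, STAR 2.7.10b, featureCounts and Subread 2.1.1, and the builds GRCm39 and mm10, without saying which was used for what. Members and lists were chosen with earlier results of these data known. No cell was filtered, no 2 cell columns were identical, and no doublet caller was run. A member counted as found in a cell at 10 or more counts. Counts were scaled to CPM, and intervals and floors cover counting error only. Where 0 cells had a gene, the share allowed in the text is 3 over the number of cells. This limit is slightly below the upper end of the exact interval.

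Pool sums (29422036 to 51285241 counts among the 4) were tested with edgeR 4.0.16 in R 4.3.3 (quasi-likelihood, filterByExpr, TMM, Benjamini-Hochberg, 0.05), after a test on simulated data. The simulated dispersion was set far below the common dispersion of 3.48 fitted to these pools. That test therefore does not show the power reached here. Sox11 and Enpp2, which set the classes, were not tested. The quasi-likelihood test gives no standard error. The SE printed with an edgeR log2 difference is its absolute value over the square root of the F statistic. DESeq2 1.42.0, limma 3.58.1, a block for dataset, other scalings, filters, class limits and pools left out were alternatives. Both pools of a dataset were sorted under 1 gate per the labels, which pairs them, and their deviations correlated at 0.223 over 7187 genes. Exon lengths came from GENCODE vM39 and merge the exons of all transcripts of a gene. They can exceed the length of the transcript present, so orders by counts per kilobase depend on them. Genes were named by rule: in each family up to 5 members (kinesins 10) found in most cells, those past the threshold, and the largest difference in each direction; of the other list, the 3 lowest p-values in each direction. Members outside it (Tubb2b, Map1a, Kif9, Kif16b, Kif15, Kif24 and the pseudogenes) were added after their values were seen.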

Additional observations from a re-analysis of the deposited data

Results flagged for a closer look

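Tuba1b had effects of opposite sign in the 2 datasets. Its log2 difference of CPM (plus 1) between the Sox11 and the Enpp2-rich pool was 0.70 in dataset A (75.1 against 45.9 CPM) and -0.67 in dataset B (74.4 against 119 CPM). The difference between the datasets was not tested, since each dataset has 1 pool of a class. In each pool, 20.2% to 44.4% of its counts came from 1 cell, and 32.4% of its 50-base words are shared with other members.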

How the results depend on the processing

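Genes called by edgeR rose from 0 to 375 without a filter on low counts and 59 with the remaining cells in the fit, and to 1392 with DESeq2; for members the counts were 13, 4 and 17. Leaving out 1 pool gave 0 to 198 genes and 0 to 7 members, with 0 genes when an Enpp2-rich pool was left out. The other alternatives, among them the replicate block for dataset (0 calls, 604 genes at an unadjusted p under 0.05 against 1017), stayed at 0 calls, as did leaving out the 3 Sox11 cells with other markers, a choice made after seeing the data. Of 38 named genes tested, 35 kept their sign in every setting. The others turned when a pool was left out, the fitted log2 difference running from -14.04 (without the Sox11 pool of dataset B) to 11.26 for Kif3b, from -0.95 to 1.47 for Mapre1, with -0.26 without the Enpp2-rich pool of dataset A, and from -15.30 to 7.13 for Katnal2; the cause was not tested. With a pool left out, the median over all genes moved from 0.50 to between -0.44 and 7.42, and that of the members from 5.28 to between 3.65 and 10.73. The members' median was 3.47 with Sox11 cells taken at 100 or more counts and 8.13 with the replicate block. Family differences between class medians that moved beyond the spread of the 2 datasets were beta-tubulins without Ttr and Enpp2 in the total (0.437% from 0.462%) and without the 3 Sox11 cells with other markers (0.542%), stathmins found per cell without these 3 cells (3.5 from 3), members found per cell at 1 count (2.25 from 1.75 for beta-tubulins, 3.25 from 3 for stathmins) and at 100 counts (1 from 1.75 for the doublecortin family). With 2 pools a class the common dispersion was 3.48. The part of depth in members found in few cells was not tested beyond thinning. Thinning does not cover transcripts missed when a cell's library was made, and their part was not tested.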

Other observations

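The 2 cells of dataset A that met both rules held 0.23% and 0.386% of counts in members, with 11 and 13 members at 10 or more counts. One of them gave 99.9% of their Tubb2a counts (1950.5 CPM in that cell), and Map1b was at 110.1 and 131 CPM. Stmn3 was found in both, at 4.04 and 8.42 CPM, and Dcx in 1, at 43.1 CPM. These cells held 4 to 8 choroid plexus markers and 7 to 12 neuroblast markers, and no caller for doublets was run. Of 14 markers of quiescent stem cells and astroglia, 1 of the 2 cells held 13 and the other 0. The highest share of counts in these astroglial markers was 1.96%.

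Tppp, a microtubule-bundling protein of oligodendrocytes, had 29321 counts in 1 of the 9 remaining cells, 3014 counts in the Sox11 pool of dataset B, all but 1 from a single cell, and 0 in Enpp2-rich cells. Hook1, a dynein adaptor, had 65.4 CPM in the Enpp2-rich pool of dataset B, from 1 cell, and 0 in the other pools compared. Both were chosen after their values were seen.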
